A study of Homo sapiens with 6 samples.

Results

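To find which functions separate CCF642-34 from its parent compound CCF642, the RNA levels of MM1.S cells treated with either compound were compared directly. CCF642 is an inhibitor of the protein disulfide isomerase PDIA1, which is encoded by P4HB, and CCF642-34 is an analog of it. The MM1.S line was derived from human multiple myeloma, the malignant counterpart of the antibody-secreting plasma cell. Both compounds were given at 3 µM for 6 h, so the pair, the only 1 compared here, was matched in concentration and in time. It was not matched in strength of effect. The authors report that the analog was more potent than its parent, both on the enzyme and against myeloma cells. Whether a difference below reflects the strength of the effect or its kind was not tested. The comparison rested on 4 libraries, 2 with CCF642-34 and 2 with CCF642, of the 6 in the series. The other 2 came from MM1.S cells given the DMSO vehicle. Their levels are given beside the genes that matter, and no gene was called against them. All groups share the same line, so the results describe 1 cell line at 1 dose and 1 time. Nothing in the labels says that the 2 libraries of a group came from separate cultures. The p-values therefore rest on the spread between libraries of a group, which may be technical. That spread was pooled over all groups, DMSO included, and for each gene drawn towards that of genes of similar level.

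Disulfide isomerases form and rearrange the disulfide bonds of proteins that pass through the endoplasmic reticulum (ER), and plasma cells depend on them because antibodies are built from disulfide-linked chains. When folding in the ER fails, the sensors IRE1 (ERN1), PERK (EIF2AK3) and ATF6 start the unfolded protein response (UPR), which raises chaperones, degradation factors and the ATF4 to CHOP (DDIT3) branch. Misfolded or modified proteins in the cytosol instead release the heat shock factor HSF1, and reactive compounds release NRF2 (NFE2L2) and relieve the repressor BACH1. Stress and signalling kinases switch on immediate early transcription factors within minutes, and these are followed by their own feedback inhibitors.

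Every library listed the same 11048 genes, and the whole reads recovered from the deposited values came to 20567313 and 22594137 with CCF642 and to 28459677 and 27797578 with CCF642-34. Depth therefore moved with the compound, and its part in the results was not tested. Among genes with enough reads, the median difference between the 2 libraries of a group was 0.087 on the log2 scale with CCF642 and 0.076 with CCF642-34. All 9 plasma cell markers were listed, among them SDC1, IRF4 and JCHAIN. Of 24 markers of other cell types, 7 were listed, and no marker of monocytes or of B cells before the plasma cell stage was among them. The highest of these 7 was the collagen gene COL1A1, at 8.99 and 10.5 CPM (reads scaled to a common library total) with CCF642.

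The compounds differed at many genes and by small amounts. At a Benjamini-Hochberg adjusted p under 0.05 in limma, 3685 of the 11048 genes (33.4%) were called, of which 1761 (15.9%) were higher with CCF642-34 and 1924 (17.4%) were lower. The median size of a called difference was 0.27 on the log2 scale. Only 275 called genes differed at least 1.5-fold, 52 of them higher and 223 lower with CCF642-34. The deposited table holds only genes that reached 1.5 CPM in at least 1 library. CCF642 alone reached that level at 69 genes, of which 15 were called lower, and CCF642-34 alone at 54, of which 5 were called higher, and for such genes the limit on what was listed fixes the direction in advance. At a threshold of 2-fold the number called was 34 (0.308%), with 33 lower (0.299%) and 1 higher (0.00905%), and that 1 was HMOX1. Among the 33 lower were 7 of the genes listed through CCF642 alone. Of the 34 genes, 15 belonged to the gene lists described below. The libraries of the groups did not overlap at 6999 genes (63.4%), so that absence of overlap alone marks little here. The calls followed expression level, from 11.9% of the 2762 genes with the lowest levels (median 3.88 CPM) to 54.4% of the 2762 with the highest (median 163 CPM). The counts of list members below therefore stand beside the 15.9% higher and 17.4% lower over all genes. The lists were not matched to those genes in level. For 3248 of the 7363 genes not called, the 95% interval of the difference lay within 1.2-fold in either direction. The split of calls depended on the scaling. With library size alone, without the TMM factors, 2406 genes were higher and 1488 lower, which put 61.8% of the calls on the higher side against 47.8% with TMM. Without CCF642-34 replicate 1 the number of genes higher was 1044, and without CCF642-34 replicate 2 it was 1168. Of the 84 counts of list members given below, 2 for each list, 44 moved by over 1.5 times without 1 or more of the 6 libraries, most of them counts of few genes. Of the 42 list medians 19 did, and 3 changed sign, by at most 0.083 on the log2 scale for any list and library.

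**Figure D1:**
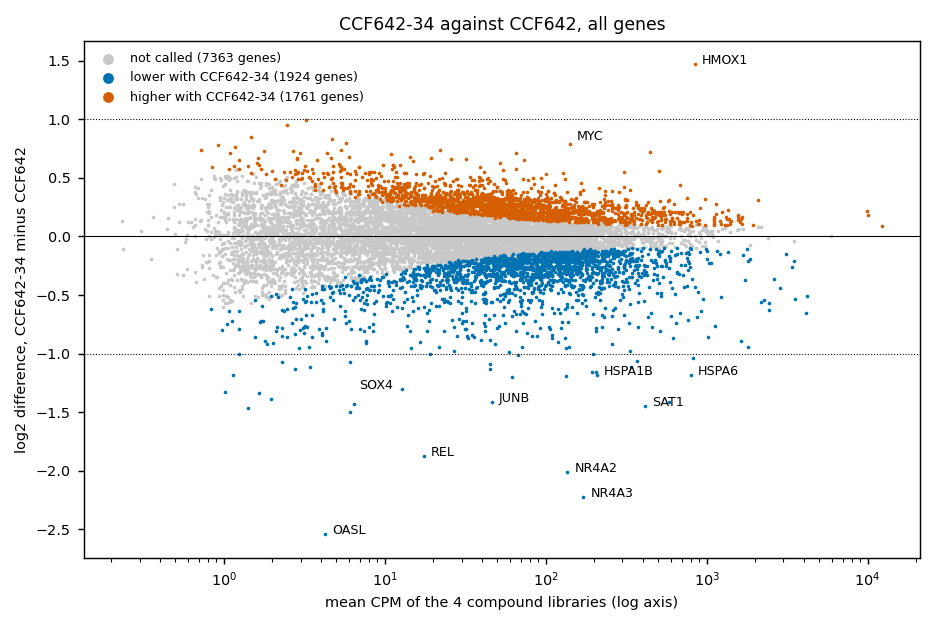
Log2 difference, CCF642-34 minus CCF642, for 11048 genes (y axis) against the mean CPM of the 4 compound libraries (x axis, log scale). Orange points were called higher with CCF642-34 (1761 genes), blue points lower (1924) and grey points not called (7363). The dotted lines mark 2-fold, past which 33 called genes lie below and HMOX1 alone lies above.

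The widest separation was in immediate early transcription factors, which were lower with CCF642-34. Of 20 measured members, 18 were called lower and none higher, with a median log2 difference of -0.78 against 0.0094 over all genes. Their median level in each library, relative to the mean of the 6 libraries, was 0.92 and 0.95 with CCF642, 0.23 and 0.21 with CCF642-34, and -1.25 and -1.20 with DMSO on the log2 scale. The orphan nuclear receptors of the NR4A family, which act without a known natural ligand, led the list. NR4A3 stood at 268 and 295 CPM with CCF642 and at 62 and 60.8 CPM with CCF642-34, beside 8.48 and 6.96 CPM with DMSO. The difference was 4.66-fold (log2 difference -2.22, SE 0.073, adjusted p = 9.98e-29). NR4A2 was at 216 and 218 CPM with CCF642 against 53.1 and 56.8 CPM with CCF642-34, a log2 difference of -2.01. NR4A1 was measured at 854 and 832 CPM with CCF642 and at 334 and 319 CPM with CCF642-34, a log2 difference of -1.41. In all NR4A genes the CCF642-34 libraries lay below both CCF642 libraries and above both DMSO libraries.

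The AP-1 factors, dimers of FOS and JUN family proteins, behaved alike in direction. JUNB read 72.5 and 61.5 CPM with CCF642 and 26 and 24.5 CPM with CCF642-34, a difference of 2.66-fold (log2 difference -1.41, SE 0.088, adjusted p = 3.38e-18). FOSL2 read 269 and 260 CPM against 125 and 118 CPM, a log2 difference of -1.16. Other members of the list, named after their values were seen, were IER5 at -1.11, JUN at -1.04, FOSB at -0.91, EGR1 at -0.82, ATF3 at -0.76 and FOS at -0.74. The 2 members not called were KLF10, at -0.28, and the serum response factor SRF, at -0.12.

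**Figure D2:**
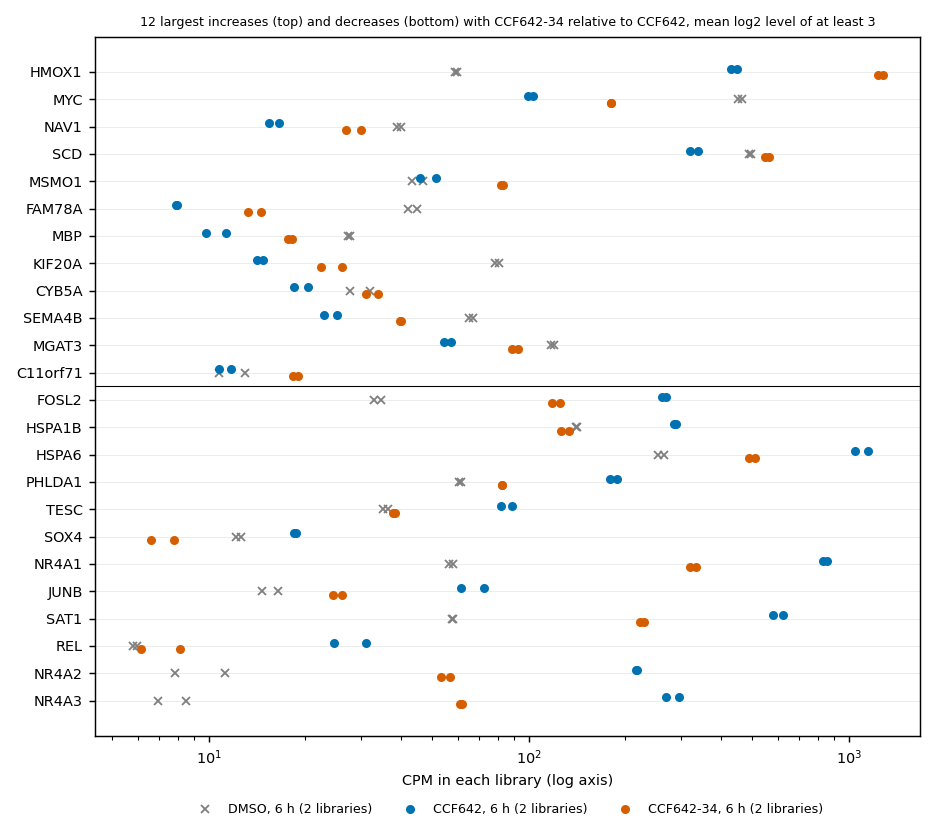
CPM in each of the 6 libraries (x axis, log scale) for the 12 largest increases and, below the line, the 12 largest decreases with CCF642-34 relative to CCF642 among called genes without overlap and with a mean log2 level of at least 3, a limit that leaves out lower genes such as KITLG. Blue and orange points are the 2 libraries of each compound and grey crosses are the 2 DMSO libraries. In every row the orange and blue points are apart, by the most for NR4A3 at the bottom.

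NF-kB genes were lower with CCF642-34 as well. NF-kB dimers are held in the cytosol by inhibitors, and when released they induce those same inhibitors. Of 26 measured subunits, inhibitors and kinases, 21 were called lower and none higher, with a median log2 difference of -0.34. The subunit REL read 24.6 and 31.1 CPM with CCF642 and 8.12 and 6.15 CPM with CCF642-34, a difference of 3.66-fold (log2 difference -1.87, SE 0.13, adjusted p = 3.99e-16). Its DMSO libraries were at 5.79 and 5.98 CPM, close to those with CCF642-34. The inhibitor NFKBIA read 63.7 and 60.1 CPM against 28.1 and 29 CPM, a log2 difference of -1.13. The ubiquitin ligase BIRC3, which blocks death receptor signalling, read 283 and 279 CPM against 125 and 135 CPM (log2 difference -1.16). For BIRC3 both CCF642-34 libraries were below the DMSO libraries, at 145 CPM each. The kinase CHUK and the scaffold IKBKG, which together release NF-kB and were chosen after their values were seen, differed by -0.01 and 0.0087 and were not called.

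The 250 bases before the start of REL, NFKBIA and BIRC3 are shown because these genes separated the compounds most within the NF-kB list. They are RefSeq sequences on GRCh38.p14, written 5′ to 3′ in the direction of the gene, with capitals where a script found the NF-kB consensus on either strand.
REL (chr2:60881324-60881573, plus strand): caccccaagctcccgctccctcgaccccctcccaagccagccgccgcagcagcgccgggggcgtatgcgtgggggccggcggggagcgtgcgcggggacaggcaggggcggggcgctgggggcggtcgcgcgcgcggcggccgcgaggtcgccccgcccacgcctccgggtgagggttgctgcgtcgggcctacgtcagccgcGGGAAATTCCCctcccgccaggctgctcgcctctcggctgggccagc
NFKBIA (chr14:35404750-35404999, minus strand): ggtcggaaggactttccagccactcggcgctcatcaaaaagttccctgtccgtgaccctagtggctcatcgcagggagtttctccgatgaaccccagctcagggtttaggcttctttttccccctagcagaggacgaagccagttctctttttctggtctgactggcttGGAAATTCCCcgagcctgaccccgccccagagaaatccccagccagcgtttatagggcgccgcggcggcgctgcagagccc
BIRC3 (chr11:102317234-102317483, plus strand): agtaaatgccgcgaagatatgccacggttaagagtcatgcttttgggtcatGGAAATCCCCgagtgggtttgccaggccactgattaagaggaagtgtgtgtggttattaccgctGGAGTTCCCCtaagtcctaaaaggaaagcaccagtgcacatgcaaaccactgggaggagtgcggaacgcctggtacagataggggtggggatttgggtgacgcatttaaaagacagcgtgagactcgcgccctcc
The capitals in REL join 2 overlapping matches, first at 47 and 46 bases before the start. NFKBIA held 1 match, 81 bases before the start, and BIRC3 held 2, at 199 and 135 bases. The consensus occurred in 8 of the 23 promoters found for the list (34.8%), and in 1034 of the 8871 promoters found for all measured genes (11.7%). Among genes called at least 1.5-fold lower with CCF642-34 it occurred in 25 of 179 promoters (14%). Among those called at least 1.5-fold higher it occurred in 5 of 42 (11.9%), so both shares lay near that of all genes. A match in these letters is a description of the sequence and not a bound site.

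Feedback inhibitors of MAP kinases and mRNA decay factors, both of which limit immediate early responses, were mostly lower with CCF642-34. Of 17 MAP kinase phosphatases, SPRY and related proteins, 9 were lower and 1 higher (median log2 difference -0.29). The phosphatase DUSP1 read 56.9 and 59.6 CPM with CCF642 and 32.4 and 31.9 CPM with CCF642-34, a log2 difference of -0.88 (SE 0.079, adjusted p = 1.26e-12). DUSP2 was 2-fold lower, from 27.7 and 23.5 CPM to 13.2 and 12.2 CPM, which put it below its DMSO libraries of 16.9 and 15.2 CPM. DUSP22 was the 1 member higher, by 0.25. Among 26 mRNA decay regulators 16 were lower and 1 higher (median -0.19). ZC3H12A, the endonuclease Regnase-1, read 77.6 and 78.3 CPM against 41.9 and 38 CPM (log2 difference -0.99), and ZFP36, which binds AU-rich elements, read 359 and 349 CPM against 215 and 206 CPM (-0.79). CNOT7, a catalytic deadenylase subunit, was the member higher, by 0.22.

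Cytosolic heat shock chaperones, which HSF1 induces, were lower with CCF642-34 in 22 of 34 measured members and higher in 2, with a median log2 difference of -0.22. HSPA1B, an inducible HSP70, read 285 and 288 CPM with CCF642 and 134 and 126 CPM with CCF642-34, while the DMSO libraries read 141 and 140 CPM. The difference was 2.27-fold (log2 difference -1.18, SE 0.047, adjusted p = 2.22e-25). HSPA1B has near-identical copies with which reads may be shared, so its level is uncertain. HSPA6, another inducible HSP70 outside the list, read 1147 and 1048 CPM against 508 and 488 CPM, also a log2 difference of -1.18. Its DMSO libraries read 254 and 265 CPM. The co-chaperone DNAJA4 read 20.2 and 22.8 CPM against 11.9 and 11 CPM (log2 difference -0.90). DNAJB1 at -0.89, BAG3 at -0.77 and HSPH1 at -0.71, all known HSF1 targets, were named after their values were seen. The higher members were BAG1, at 0.19, and HSPB11, at 0.30, an intraflagellar transport subunit rather than a heat-induced chaperone. The limma call of HSPB11 (adjusted p = 0.038) was lost without any 1 of the 6 libraries, with adjusted p from 0.0542 without DMSO replicate 1 to 0.161 without CCF642-34 replicate 2.

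The HSPA6 promoter is shown because it held the full heat shock element, GAANNTTCNNGAA, searched on both strands and marked in capitals.
HSPA6 (chr1:161524290-161524539, plus strand): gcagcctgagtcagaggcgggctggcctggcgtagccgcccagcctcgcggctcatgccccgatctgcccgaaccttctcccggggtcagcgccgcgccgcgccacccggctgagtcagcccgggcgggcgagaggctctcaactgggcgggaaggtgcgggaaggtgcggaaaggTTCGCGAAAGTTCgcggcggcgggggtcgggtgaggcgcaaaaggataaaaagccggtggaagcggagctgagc
The element lay 74 bases before the start. It occurred in 24 of 8871 promoters (0.271%) and in 4 of the 29 found for the heat shock list (13.8%), namely HSPA8, DNAJB6, CHORDC1 and SERPINH1. BAG3, named above, had a promoter that was searched and was not among these. Nor were DNAJB1 and HSPH1, though not every member had a promoter to search. Of 179 promoters of genes called at least 1.5-fold lower with CCF642-34, 3 held it (1.68%), those of CHORDC1, HSPA6 and JAK3.

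The chaperonin CCT and prefoldin, which fold actin and tubulin, did not share that direction, with 6 of 17 members higher and 1, TCP1, lower (median 0.095). Leaving out CCF642 replicate 2 brought the median to 0.012, and leaving out replicate 1 brought it to 0.06. The prefoldin subunit PFDN4 read 38.6 and 45 CPM with CCF642 and 52 and 61.8 CPM with CCF642-34, a log2 difference of 0.39.

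**Figure D3:**
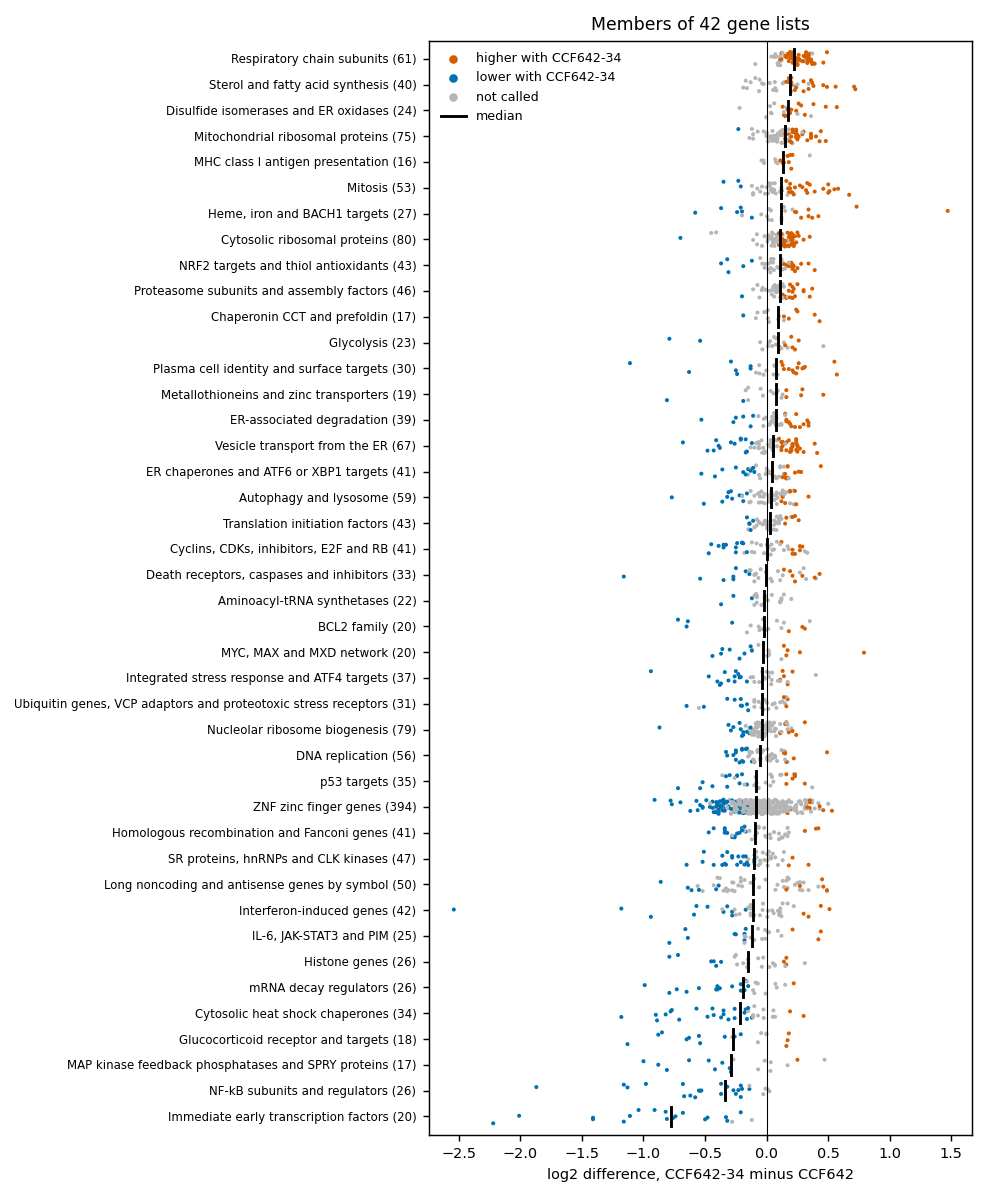
Log2 difference, CCF642-34 minus CCF642 (x axis), for each measured member of 42 gene lists, ordered by the list median (black bar), with the number of members in parentheses. Orange members were called higher with CCF642-34, blue lower and grey not called. Immediate early transcription factors lie lowest, with a median of -0.78, and respiratory chain subunits highest, with a median of 0.22.

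In the ER the compounds differed less, and by function. P4HB, the gene of the target PDIA1, read 1594 and 1656 CPM with CCF642, 1756 and 1742 CPM with CCF642-34 and 1640 and 1690 CPM with DMSO. Its log2 difference of 0.062 (95% interval -0.0078 to 0.13) did not pass the test (limma adjusted p = 0.171). P4HB did pass with library size alone, at 0.11 (adjusted p = 0.0111), and without CCF642 replicate 2, at 0.094 (0.0211). Of the 24 measured disulfide isomerases and ER oxidases, 14 were higher with CCF642-34 and none lower, with a median of 0.17. Without CCF642-34 replicate 2 the number higher was 8. TXNDC5, a plasma cell isomerase, read 39.7 and 46 CPM with CCF642 and 70.9 and 61.2 CPM with CCF642-34 (log2 difference 0.57, SE 0.078, adjusted p = 8.84e-08). The sulfhydryl oxidase QSOX2 read 26.5 and 30.7 CPM against 42.4 and 40.4 CPM, a log2 difference of 0.48. PDIA4 differed by 0.28, PDIA6 by 0.15 and PDIA3 by 0.13. PDIA6 was not called without CCF642-34 replicate 1 (adjusted p = 0.0628), nor PDIA3 without replicate 2 (0.122).

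ER chaperones and UPR targets went both ways, with 11 of 41 higher and 10 lower (median 0.042). The major ER chaperone BiP (HSPA5) was lower, at 2854 and 2934 CPM with CCF642 and 2308 and 2332 CPM with CCF642-34, beside 1331 and 1328 CPM with DMSO. Its difference was 1.29-fold (log2 difference -0.36, SE 0.034, adjusted p = 3.32e-12). HERPUD1, which gathers degradation complexes in the ER membrane, read 4210 and 4042 CPM against 2921 and 2962 CPM (-0.53). The proteases that cleave ATF6 went apart, MBTPS1 lower by a log2 difference of -0.42 and MBTPS2 higher by 0.44. XBP1 differed by -0.13. Without replicate 1 of CCF642-34, 7 members were higher and 7 lower. In ER-associated degradation 13 of 39 members were higher and 6 lower (median 0.074). The membrane scaffold ERLIN2 was higher by 0.34 and the deubiquitinase YOD1 lower, at -0.27. In vesicle transport from the ER 28 of 67 members were higher and 14 lower (median 0.048). Higher members included the signal peptidase subunit SPCS1, at 0.41, and lower ones the COPII coat subunit SEC24A, at -0.68, and its organizer SEC16A, at -0.48.

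Of the UPR sensors, PERK differed the most. EIF2AK3 (PERK) read 519 and 511 CPM with CCF642 and 402 and 417 CPM with CCF642-34, a log2 difference of -0.37 (SE 0.041, adjusted p = 3.73e-10). ERN1 (IRE1) differed by -0.10 (adjusted p = 0.0438). The call did not hold with library size alone (-0.052, adjusted p = 0.284), with only the 4 compound libraries (0.0883) and without any 1 library except CCF642 replicate 1, with adjusted p from 0.0883 without DMSO replicate 2 to 0.197 without CCF642-34 replicate 2. ATF6 differed by 0.042 (95% interval -0.051 to 0.14) and was not called, except with the correction for GC content and length, at 0.13 (adjusted p = 0.012). ATF4 read 1101 and 1060 CPM with CCF642 and 1125 and 1103 CPM with CCF642-34, beside 411 and 428 CPM with DMSO. Its difference of 0.00075 had a 95% interval of -0.073 to 0.075. DDIT3 (CHOP) read 225 and 199 CPM against 203 and 205 CPM, beside 20.6 and 20.8 CPM with DMSO, with a difference of -0.10 (95% interval -0.21 to 0.017, limma adjusted p = 0.193). DDIT3 was called lower without CCF642 replicate 2, at -0.18 (adjusted p = 0.0246), and with the correction for GC content and length, at -0.14 (adjusted p = 0.0305). The pseudokinase TRIB3, an ATF4 and CHOP target, differed by 0.13 (adjusted p = 0.039), and its call was lost with DESeq2's size factors (0.0529), with the correction for GC content and length (0.0754), without CCF642 replicate 2 (0.107) and without either CCF642-34 library (0.262 and 0.0866). Over the list of 37 integrated stress response genes, 5 were higher and 14 lower, with a median of -0.035 that became 0.0087 with library size alone. The lower members included PPP1R15A, the phosphatase subunit that reverses the response, at 1062 and 957 CPM against 767 and 737 CPM (log2 difference -0.47), and the pseudokinase TRIB1, at -0.94. Of the 5 higher members 1 was left without either CCF642 replicate 2 or CCF642-34 replicate 1.

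**Figure D4:**
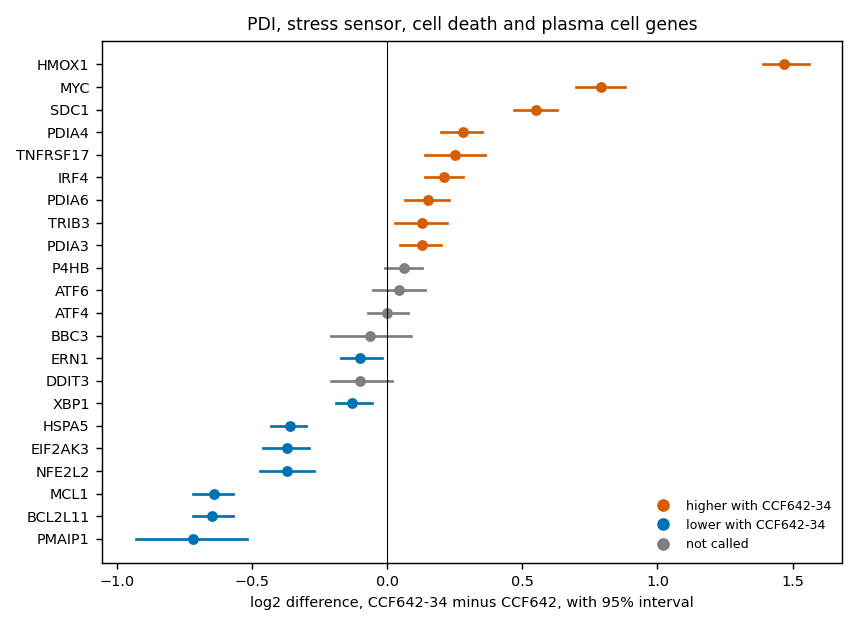
Log2 difference, CCF642-34 minus CCF642, with its 95% interval (x axis) for 22 genes of protein folding, stress sensing, cell death and plasma cell identity. Orange was called higher with CCF642-34, blue lower and grey not called. HMOX1 is far above the rest at 1.47, while P4HB, ATF6, ATF4, BBC3 and DDIT3 have intervals that include 0.

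Heme and iron genes held the largest increase. HMOX1, heme oxygenase, which degrades heme and is repressed by BACH1, read 446 and 429 CPM with CCF642 and 1278 and 1234 CPM with CCF642-34, beside 58.7 and 59.7 CPM with DMSO. It was 2.78-fold higher (log2 difference 1.47, SE 0.041, adjusted p = 3.87e-31). BACH1 itself was lower, at 390 and 407 CPM against 268 and 280 CPM (log2 difference -0.58). Its DMSO libraries, at 136 and 136 CPM, lay below those of both compounds. The iron exporter SLC40A1 was higher by 0.73, from 1.31 and 0.841 CPM to 2.14 and 2.81 CPM, a call that was lost without CCF642-34 replicate 2 (0.59, adjusted p = 0.0764). The biliverdin reductases BLVRA and BLVRB, which take up the product of HMOX1 and were named after their values were seen, were higher by 0.37 and 0.42. Over the list 9 of 27 were higher and 6 lower (median 0.12), and without CCF642-34 replicate 2 the numbers were 5 and 3.

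NRF2 targets went both ways. Of 43 thiol antioxidant genes 15 were higher and 5 lower (median 0.11), and 9 were higher without CCF642-34 replicate 1. NFE2L2 (NRF2) was lower, at 190 and 199 CPM against 152 and 158 CPM (log2 difference -0.37, SE 0.051, adjusted p = 1.02e-07). Its small MAF partner MAFF was lower at -0.32, while the glutathione transferase MGST3 was higher by 0.39 and the quinone reductase NQO2 by 0.34. With DMSO, MGST3 read 37.9 and 37.1 CPM, above its compound libraries. NFE2L2 (78.9 and 74.8 CPM), MAFF (16 and 16.8 CPM) and NQO2 (24.7 and 25.6 CPM) lay below theirs. The cystine transporter SLC7A11 and the thioredoxin reductase TXNRD1, named after their values were seen, were lower at -0.31 and -0.12. Among 19 zinc transporters and metallothioneins 5 were higher and 2 lower (median 0.079), and 2 were higher without either CCF642-34 library. The zinc exporter SLC30A1, a target of the zinc sensor MTF1, read 253 and 265 CPM with CCF642 and 152 and 152 CPM with CCF642-34 (log2 difference -0.81).

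Of 61 nuclear-encoded respiratory chain subunits 47 were higher with CCF642-34 and none lower, with a median of 0.22. UQCR10, a complex III subunit, read 48.2 and 40.3 CPM with CCF642 and 69.7 and 59.2 CPM with CCF642-34 (log2 difference 0.49, SE 0.073, adjusted p = 5.90e-07), and the complex I subunit NDUFA7 differed by 0.46. The DMSO libraries of UQCR10, at 69.2 and 71.6 CPM, lay near the upper CCF642-34 library. Of 75 mitochondrial ribosomal proteins 28 were higher and 1 lower (median 0.15), led by MRPL34 at 0.48. Of 80 cytosolic ribosomal proteins 48 were higher and 1 lower (median 0.11). RPL9 read 470 and 433 CPM against 572 and 575 CPM (0.30), and the exception RPL36A read 6.32 and 6.02 CPM against 3.09 and 4.03 CPM (-0.70). Ribosomal protein genes have many processed copies, which leaves their single values uncertain. These counts dropped when CCF642-34 replicate 1 was left out, to 27 respiratory chain subunits, 15 mitochondrial and 21 cytosolic ribosomal proteins. When replicate 2 was left out they were 39, 17 and 38. With a correction for GC content and transcript length they were 44, 26 and 38. With a gene-wise linear model, which uses each gene's own spread alone, they were 3, 4 and 4. When a difference beyond 1.2-fold was tested, each was 0. No mitochondrially encoded gene was listed. Nucleolar factors that assemble ribosomes did not share the direction, with 7 of 79 higher and 12 lower. Of them 24.1% were called, below the 33.4% over all genes. Their median of -0.038 became 0.0052 with library size alone. POLR1E, an RNA polymerase I subunit, read 141 and 140 CPM against 78.4 and 78.8 CPM (log2 difference -0.87). Without CCF642-34 replicate 1, 4 nucleolar genes were higher and 7 lower.

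Proteasome genes were higher in 19 of 46 members and lower in 1, the activator PSME4 at -0.20, with a median of 0.11. PSME4 was not called without CCF642 replicate 2 (adjusted p = 0.0722). PSMD10, an assembly chaperone, read 55.1 and 51.4 CPM with CCF642 and 68.4 and 72.2 CPM with CCF642-34 (log2 difference 0.35). Without CCF642-34 replicate 1 the number higher was 8, and without CCF642 replicate 2 it was 12. Ubiquitin genes and receptors of damaged proteins were higher in 3 of 31 members and lower in 9, with a median of -0.037 that became 0.0061 with library size alone. The autophagy receptor SQSTM1 read 4948 and 4777 CPM with CCF642 and 3580 and 3465 CPM with CCF642-34 (log2 difference -0.51). Among autophagy and lysosome genes the lysosomal galactosidase GLA was at -0.77 and the cholesterol carrier NPC2 at 0.34. Of 59 members 8 were higher (13.6%) and 11 lower (18.6%), near the shares over all genes (median 0.035). Without CCF642-34 replicate 2 these counts were 5 and 7.

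**Figure D5:**
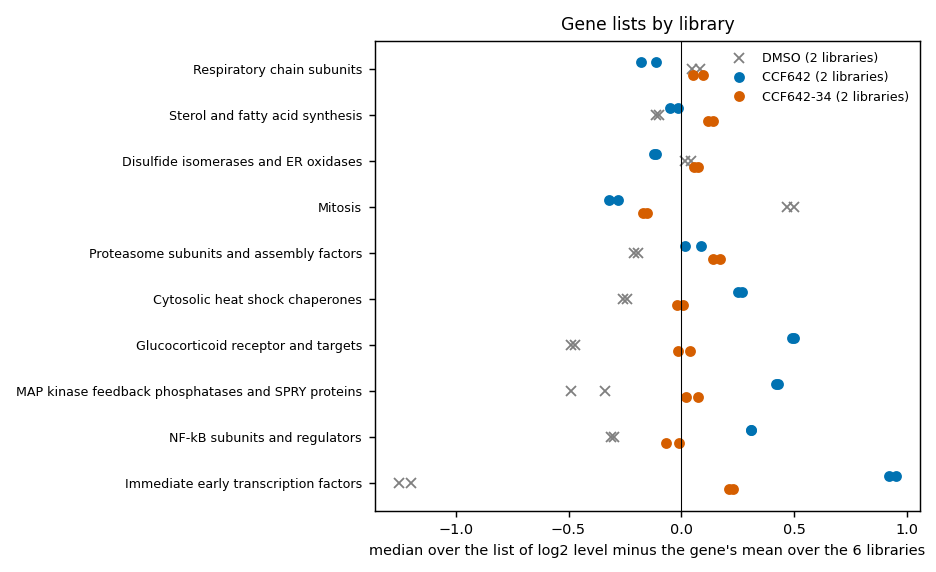
Median over each gene list of the log2 level minus the gene's mean over the 6 libraries (x axis), in each library. Blue and orange points are the 2 libraries of CCF642 and CCF642-34 and grey crosses those of DMSO. For immediate early transcription factors the CCF642 libraries lie at 0.92 and 0.95 and the CCF642-34 libraries at 0.23 and 0.21, while for respiratory chain subunits the CCF642 libraries are the lowest.

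Of 40 sterol and fatty acid synthesis genes, which SREBP factors induce, 19 were higher with CCF642-34 and none lower (median 0.19). The desaturase SCD read 319 and 337 CPM with CCF642 and 563 and 549 CPM with CCF642-34, beside 495 and 489 CPM with DMSO (log2 difference 0.72, SE 0.040, adjusted p = 5.50e-20). The sterol oxidase MSMO1 read 45.8 and 51.2 CPM against 83 and 81.9 CPM, a log2 difference of 0.71. The SREBP-induced gene INSIG1, named after its value was seen, was higher by 0.56. In glycolysis 7 of 23 genes were higher and 2 lower (median 0.092). The lower ones were the regulator PFKFB3, at -0.79, and the glucose transporter SLC2A3, at -0.54, and PGAM1 was higher by 0.26.

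Among cell cycle genes, 25 of 53 mitosis genes were higher with CCF642-34 and 3 lower (median 0.12). The mitotic kinesin KIF20A read 14.1 and 14.8 CPM with CCF642 and 22.4 and 26.1 CPM with CCF642-34, beside 80.6 and 78.5 CPM with DMSO (log2 difference 0.67, SE 0.085, adjusted p = 1.87e-08). The kinase PLK1 read 45.8 and 57.2 CPM against 79.1 and 79.8 CPM (0.58), beside 198 and 202 CPM with DMSO. In bulk RNA, fewer cells in mitosis and less RNA per cell cannot be told apart. Genes of DNA replication were higher in 5 of 56 (8.93%) and lower in 14 (25%), with a median of -0.05. Together 33.9% were called, near the 33.4% over all genes. The lower ones included the origin factors ORC6, at -0.33, and MCM10, at -0.32. Homologous recombination and Fanconi genes were higher in 3 of 41 and lower in 15 (median -0.092). BRCA2 was at 29 and 28.9 CPM against 20.4 and 23.7 CPM (-0.43). Without CCF642-34 replicate 1, 9 replication and 9 recombination genes were lower. Cyclins, CDKs and E2F factors were divided, with 7 of 41 higher and 13 lower. E2F7, a repressor of E2F targets, was at -0.47 and CKS1B at 0.29. Without CCF642-34 replicate 2, 8 members were lower. In the MYC network 5 of 20 were higher and 8 lower, with a median of -0.031 that became 0.012 with library size alone. MYC, a main driver of myeloma growth, read 99.4 and 103 CPM with CCF642 and 181 and 181 CPM with CCF642-34, beside 452 and 465 CPM with DMSO. It was 1.73-fold higher (log2 difference 0.79, SE 0.045, adjusted p = 1.75e-19). Its antagonist MNT was lower at -0.44. Without CCF642-34 replicate 1 the network had 1 member higher and 5 lower.

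Cell death genes of the BCL2 family were higher in 3 of 20 (15%) and lower in 4 (20%), near the 15.9% and 17.4% of all genes. For death receptors, caspases and inhibitors, named below, the shares were 21.2% and 24.2%. The lower BCL2 family members held both killers and protectors. The protector MCL1 read 1132 and 1084 CPM with CCF642 and 728 and 734 CPM with CCF642-34, close to 754 and 732 CPM with DMSO (log2 difference -0.64, SE 0.036, adjusted p = 1.07e-19). The killer BIM (BCL2L11) read 812 and 827 CPM against 538 and 540 CPM (-0.65). NOXA (PMAIP1) read 40.6 and 38.8 CPM against 22.9 and 26 CPM (-0.72), beside 5.92 and 5.93 CPM with DMSO. PUMA (BBC3) read 74.6 and 72.1 CPM against 75.7 and 69.1 CPM, and its difference of -0.064 (95% interval -0.21 to 0.087) was not called. BAX was higher by 0.31, except that the call was lost without CCF642-34 replicate 1 (0.22, adjusted p = 0.0806). Of 33 death receptors, caspases and inhibitors 7 were higher and 8 lower, among them FADD at 0.39 and CASP6 at 0.43, and without CCF642-34 replicate 2 both numbers were 4. Of 35 p53 targets 6 were higher and 12 lower (median -0.083), and without CCF642-34 replicate 1 the number higher was 2.

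Plasma cell genes were higher in 14 of 30 and lower in 7 (median 0.079). SDC1, the surface proteoglycan CD138, read 239 and 252 CPM with CCF642 and 383 and 359 CPM with CCF642-34, beside 870 and 851 CPM with DMSO (log2 difference 0.55, SE 0.041, adjusted p = 2.39e-15). TNFRSF17, the surface antigen BCMA, read 72.7 and 71.2 CPM against 84.9 and 91.7 CPM (0.25), beside 170 and 162 CPM with DMSO. The transcription factor IRF4 read 1127 and 1147 CPM against 1358 and 1355 CPM (0.21). Unlike SDC1 and TNFRSF17, IRF4 was lowest with DMSO, at 682 and 657 CPM. The chemokine receptor CXCR4 was lower, at 306 and 319 CPM against 206 and 210 CPM (-0.63). Of 25 genes of IL-6 and JAK-STAT3 signalling 3 were higher and 8 lower (median -0.12). The feedback inhibitor SOCS1 read 8.46 and 7.52 CPM against 4.53 and 4.17 CPM (-0.79), and the kinase PIM2 was higher, at 599 and 543 CPM against 819 and 779 CPM (0.44). In the list of the glucocorticoid receptor and its targets 3 of 18 were higher and 10 lower (median -0.27). NFKBIA, DUSP1, CXCR4 and BCL2L11 belong to it too, and the kinase SGK1 at -0.85 and the receptor NR3C1 at -0.55 were named after their values were seen. The number higher was 0 without CCF642 replicate 2 and 1 without either CCF642-34 library.

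Interferon-induced genes were higher in 4 of 42 and lower in 11 (9.52% and 26.2%, beside 15.9% and 17.4% of all genes). Their median was -0.11. The median was -0.035 without CCF642 replicate 2, -0.047 without CCF642-34 replicate 1, -0.066 without CCF642-34 replicate 2 and -0.048 with a mean CPM of at least 5. OASL, an oligoadenylate synthetase relative, read 8.61 and 7.3 CPM with CCF642 and 0.457 and 0.719 CPM with CCF642-34, beside 0.348 and 0.234 CPM with DMSO (log2 difference -2.54, SE 0.21, adjusted p = 9.08e-14). Both OASL and IFIT3 were listed through CCF642 libraries alone, so their direction was fixed by the limit on listed genes. IFIT3 read 0.924 and 3.1 CPM against 0.246 and 0.288 CPM (-1.18), and the call was lost without CCF642 replicate 2 (-0.63, adjusted p = 0.121). The calls of the higher members DHX58 and GBP4 were lost without any 1 of the 4 compound libraries, the adjusted p ranging from 0.0527 for GBP4 without CCF642 replicate 1 to 0.166 for DHX58 without CCF642-34 replicate 1. MHC class I genes were higher in 9 of 16 and lower in none (median 0.13), with HLA-C at 0.20 and PSME2 at 0.21, and 5 were higher without either CCF642 replicate 2 or CCF642-34 replicate 1. The call of PSME2 was lost without the latter (adjusted p = 0.0591). HLA-C shares reads with its paralogs and is uncertain.

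Splicing factors were lower with CCF642-34 in 21 of 47 members and higher in 3 (median -0.10). The kinase CLK1, which phosphorylates SR proteins, read 546 and 545 CPM with CCF642 and 355 and 364 CPM with CCF642-34 (log2 difference -0.65, SE 0.040, adjusted p = 2.95e-18). The scaffold SRRM2 read 1383 and 1454 CPM against 1031 and 1015 CPM (-0.52), and HNRNPC was higher by 0.21. Among 394 zinc finger genes of the ZNF series 67 (17%) were lower, near the 17.4% over all genes, and 10 (2.54%) higher, beside 15.9%. Their median was -0.084, and ZNF460 read 58.2 and 67.5 CPM against 36.9 and 37.3 CPM. Without CCF642-34 replicate 2, 49 were lower and 2 higher. Of 43 initiation factors 5 were higher and 5 lower (median 0.025), and of 22 aminoacyl-tRNA synthetases 3 were lower and none higher, with RARS at -0.37. Under library size alone 14 initiation factors were higher and 2 lower, and 7 synthetases were higher and 2 lower. Without CCF642 replicate 1, 1 synthetase was higher and 7 lower, and without CCF642 replicate 2, 3 were higher and 2 lower. Of 26 histone genes 3 were higher and 6 lower (median -0.15), and of 50 long noncoding and antisense genes 5 were higher and 6 lower (median -0.11). HIST1H1E, at 7.93 and 7.21 CPM against 4.08 and 4.64 CPM, was called lower (-0.72, limma adjusted p = 0.000521). Low levels of many members of these last 2 lists leave small differences hard to detect. Antisense reads cannot be told from those of the partner gene unless strand was used in counting.

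Several of the largest decreases belonged to none of the lists. SAT1, which acetylates polyamines for export, read 624 and 580 CPM with CCF642 and 223 and 229 CPM with CCF642-34, beside 57.9 and 57.4 CPM with DMSO (log2 difference -1.45, SE 0.046, adjusted p = 2.48e-29). PHLDA1 read 179 and 188 CPM against 82.3 and 82.5 CPM (-1.19), and TESC, a calcium-binding protein, read 82 and 88.8 CPM against 37.6 and 38.1 CPM (-1.20). The transcription factor SOX4 read 18.7 and 18.4 CPM against 7.8 and 6.62 CPM (-1.30), below its DMSO libraries of 12.2 and 12.6 CPM. Among increases outside the lists, NAV1, a neuron navigator protein, read 15.4 and 16.6 CPM against 26.8 and 29.8 CPM (0.74), and the glycosyltransferase MGAT3 read 57.2 and 54.5 CPM against 92.3 and 88.9 CPM (0.65). Of the other genes at least 2-fold lower, 3 were named after their values were seen. KITLG, the ligand of the KIT receptor, was at -1.50, the integrin ITGB8 at -1.09, and COL1A1, a stroma marker, at -1.43. The stroma markers listed summed to 10.6 and 11.7 CPM with CCF642, 4.01 and 4.68 CPM with CCF642-34 and 2.74 and 2.85 CPM with DMSO. COL1A1 made most of that sum with either compound, COL1A2 was not listed, PDGFRB was at 1.15 to 1.65 CPM in every library, and the part of other cells in the COL1A1 difference was not tested.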

How the data were processed

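RNA was sequenced from MM1.S cells treated for 6 h. The labels give 2 libraries each for DMSO and for either compound at 3 µM. The authors deposited CPM values (counts scaled to a common library total) for 11048 genes per library, already limited to genes reaching 1.5 CPM in at least 1 library. The submitters' processing notes name STAR, edgeR 3.24.3, limma 3.38.3 and hg19, with no role given. A table of the whole series held the same values and was not used. CPM were scaled by TMM factors (edgeR 4.0.16) and tested as log2(CPM + 1) with limma 3.58.1 (R 4.3.3), in a fit of all 6 libraries without a replicate block. This left 3 residual degrees of freedom, to which a prior of 42.9 was added. DMSO libraries entered the scaling and the spread. Tests were two-sided, with Benjamini-Hochberg adjustment over all genes. No gene was filtered. Differences and folds are on the log2(CPM + 1) scale, which understates those of low genes. On simulated reads for this comparison over the same genes, 100 of 100 genes changed 3-fold and 90 of 100 changed 1.5-fold were called, with 8 of 10848 unchanged genes. The simulation gave all genes 1 common spread beyond counting and changed few of them. These rates therefore need not hold for the real libraries.

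Whole reads, recovered from the CPM at every value within a tolerance of 0.1 reads, gave the depth and were used for the alternatives in edgeR and DESeq2 1.42.0. The 43 gene lists were written by hand, and 42 had measured members. The lists, like the comparison itself, were chosen with earlier results of these data known, so lists are described by counts and medians without a test. Of 1882 list members, 60 are in more than 1 list. Genes were named by a rule that gave 169, not all of which appear. It took the 12 largest increases and decreases among called genes without overlap between groups and with a mean log2 level of at least 3, the 2 largest called in each direction per list, and 22 genes of protein folding, stress, cell death and plasma cell identity, called or not. Some genes this rule takes are not reported here. RefSeq promoters (GRCh38.p14) were matched by symbol for 8871 genes, and transcript GC content and length (GENCODE release 29) for 11016. Alternatives were other scalings, pseudocounts, a minimum mean CPM of 5, other tests, only the 4 compound libraries, a replicate block, a fit with GC content and length as trends, and leaving out each library.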

Additional observations from a re-analysis of the deposited data

How the results depend on the processing

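Among 20 alternative settings, the 3685 calls became 739 with a gene-wise linear model (242 higher, 497 lower) and 337 when a difference beyond 1.2-fold was tested with limma's treat (44 higher, 293 lower). All 337 and 699 of the 739 were among the 3685, in the same direction. In these 2 settings, the 18 immediate early transcription factors lower became 12 and 12. The 22 heat shock chaperones lower became 14 and 11, and the 21 NF-kB genes lower became 9 and 9. Of members higher, the 47 respiratory chain subunits became 3 and 0, and the 19 proteasome genes 1 and 0. The 14 disulfide isomerases and ER oxidases higher became 1 and 1, and the 19 sterol and fatty acid genes 5 and 5. Without 1 library, calls numbered between 2470 and 3541, those higher between 1044 and 1660 and those lower between 1402 and 1881. The 34 genes at least 2-fold apart were 90 with a pseudocount of 0.1 (19 higher, 71 lower), 21 with a pseudocount of 4 (20 lower), 22 with a mean CPM of at least 5 (21 lower), 98 with edgeR's quasi-likelihood test (19 higher, 79 lower), 61 with DESeq2's Wald test (6 higher, 55 lower) and 106 with limma-voom (24 higher, 82 lower), and with library size alone 2 were higher. Without 1 library they numbered between 32 and 46, with 1 to 8 higher and 31 to 38 lower. A larger pseudocount shrinks differences by construction, and the cause was not tested for the other settings. Of 169 named genes, 125 kept their side of the threshold and direction in every setting other than the gene-wise model and treat. Those that changed sign were not called in the first place. ATF4 was at -0.0075 with DESeq2's size factors, -0.0034 with a mean CPM of at least 5, -0.0076 with DESeq2's Wald test, -0.0085 with the correction for GC content and length, and between -0.022 and 0.024 when single libraries were left out. Without 1 library, ATF6 ranged from -0.00099 to 0.086 and BBC3 from -0.13 to 0.0066. Replicate numbers were not shown to pair the libraries, since the deviations of same-numbered libraries correlated at 0.047 between the compounds, and with a replicate block 3805 genes were called, 34 of them at least 2-fold apart, while ERN1 was not called (adjusted p = 0.0574). With 2 libraries a group, low expression limits what can be called.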
